A study of Rattus norvegicus with 84 samples.

Results

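Wnt signalling genes were followed in the dentate gyrus (DG) and in CA1 and CA3, the 3 hippocampal subregions of 28 male F344 rats. They were chosen by symbol, as the Wnt ligands, Frizzled receptors, secreted inhibitors, Dishevelled proteins, members of the beta-catenin destruction complex, Tcf and Groucho factors, and named co-receptors and regulators. This gave 58 of the 15999 genes found in any of the 3 tables. Of these, 57 were in the CA1 table, 57 in the CA3 table and 54 in the DG table, and 54 were in every one. Dkk2 was in the CA1 table alone, Sfrp5 in the CA3 table alone, and Wnt8b and Wnt11 in both of these but not in that of the DG. A filter on low values left 54 members in CA1, 55 in CA3, 53 in the DG and 52 in all 3. The young group held 12 rats of 5 months and the middle-aged group 16 rats of 12 months, and each rat gave 1 library per subregion, 84 libraries in all. All rats were of the same inbred strain and sex, and no treatment or transgene is named in the labels. The rats' animal numbers fall into a first run (6 young, 10 middle-aged) and a second run (6 young, 6 middle-aged). The labels do not call the runs batches.

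Wnt proteins are lipid-modified secreted ligands. They bind Frizzled receptors together with Lrp5 or Lrp6, and through Dishevelled they stop a complex of Apc, Axin and Gsk3 from marking beta-catenin for destruction, so that beta-catenin reaches the nucleus and acts with Tcf and Lef factors. In the hippocampus the pathway is known for its part in embryonic patterning, in neurogenesis in the DG and at synapses. Several of its members restrain it.

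Axin2 is a widely used transcriptional target of beta-catenin, and Gsk3a and Gsk3b encode the 2 forms of the kinase Gsk3 in the destruction complex, and their RNA moved in different directions in the DG. Their RefSeq promoters (build GRCr8, 250 bases before to 50 bases after the start of the gene) are shown for these reasons. Capitals mark the Tcf and Lef core motif, searched as CTTTG followed by A or T at each of the next 2 bases, on both strands. Axin2 lies at chr10:94398535-94398834 on the plus strand, Gsk3a at chr1:89953465-89953764 on the minus strand and Gsk3b at chr11:76153200-76153499 on the minus strand.

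Axin2: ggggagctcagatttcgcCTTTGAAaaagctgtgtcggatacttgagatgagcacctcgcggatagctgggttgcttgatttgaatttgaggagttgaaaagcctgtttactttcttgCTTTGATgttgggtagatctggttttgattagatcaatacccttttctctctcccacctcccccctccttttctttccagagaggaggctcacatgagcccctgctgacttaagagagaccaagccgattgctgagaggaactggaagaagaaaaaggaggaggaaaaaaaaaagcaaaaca

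Gsk3a: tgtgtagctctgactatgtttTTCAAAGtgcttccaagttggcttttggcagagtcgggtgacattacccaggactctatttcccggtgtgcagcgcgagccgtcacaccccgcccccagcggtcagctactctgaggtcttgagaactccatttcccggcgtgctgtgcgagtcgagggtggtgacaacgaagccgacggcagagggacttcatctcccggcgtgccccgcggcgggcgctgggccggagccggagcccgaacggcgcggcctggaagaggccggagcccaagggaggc

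Gsk3b: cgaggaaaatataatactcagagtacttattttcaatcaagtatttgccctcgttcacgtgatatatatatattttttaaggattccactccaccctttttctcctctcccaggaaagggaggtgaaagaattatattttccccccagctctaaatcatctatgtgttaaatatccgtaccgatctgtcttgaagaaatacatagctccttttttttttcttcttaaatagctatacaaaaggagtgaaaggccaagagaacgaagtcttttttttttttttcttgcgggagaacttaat

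The Axin2 promoter held 2 matches, beginning 232 and 132 bases before the start, and the Gsk3a promoter held 1 match on the opposite strand. No match was found in the Gsk3b window, which says only that these letters are not in it. Of 33469 promoters of this length in the table, 17.1% held at least 1 match and 2.12% held at least 2. A promoter was found for 45 of the 58 genes, or 77.6%, which is under the 80% set for a comparison, so the share of members with a match is not compared with the share of all promoters. The other members with a match were Fzd7, Sfrp5, Tcf7 and Wnt3, each with 1.

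Values are the authors' normalized counts, which are reads per gene after scaling each library by a single size factor. Libraries held between 14.4 and 23.4 M recovered reads. In 13 libraries from 10 rats (5 young, 5 middle-aged), the summed choroid plexus markers exceeded 5 times or the summed microglia markers 3 times the median of the subregion. Both libraries with high microglia markers came from middle-aged replicate 10. Summed markers of CA1 pyramidal cells had a young median of 51530 in CA1 against 7333 in the DG, and those of dentate granule cells a young median of 17002 in the DG against 2597 in CA1. The dissected tissue holds many cell types, and fewer cells of a type and less RNA per cell cannot be told apart.

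In middle-aged rats, many Wnt signalling genes were lower than in young rats, by up to 47.9% where the test passed (Sfrp2 in the DG). Of the 57 members tested in any subregion, 33 passed in at least 1, or 57.9%, near the 50.7% of all genes that did. Of the 52 tested in all 3, 6 were lower in each (11.5%, against 4.45% of all genes): Apc2, Bcl9, Bcl9l, Dvl3, Fzd1 and Lrp5. The genes that rose were few: Apc, Gsk3b, Lrp6 and Wls in the DG. In CA1, 17 of 54 members tested passed, all of them lower, where 25.2% of all genes passed in either direction and 12.8% were lower. In CA3, 11 of 55 passed, all lower, against 21.7% of all genes in either direction and 10.8% lower. The DG had 28 of 53, with 24 lower and 4 higher, against 37.1% of all genes in either direction, 18.5% lower and 18.5% higher. For the mean over a rat's 3 subregions, 30 of 52 passed, 27 lower and 3 higher (Apc, Fzd4 and Wls), against 50% of all genes in either direction, 24.6% lower and 25.4% higher. As shares, 31.5% of the members tested were lower in CA1, while CA3 had 20% and the DG 45.3%. In either direction, the share of members that passed in CA3 was near that of all genes. The median log2 change of the members tested was -0.18 for the DG, -0.17 for CA1 and -0.10 for CA3, while that of all genes tested was between 0.00 and 0.01. These p values are from limma on log2 of the value plus 1, adjusted by Benjamini-Hochberg over all genes tested, with a threshold of 0.05.

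**Figure D1:**
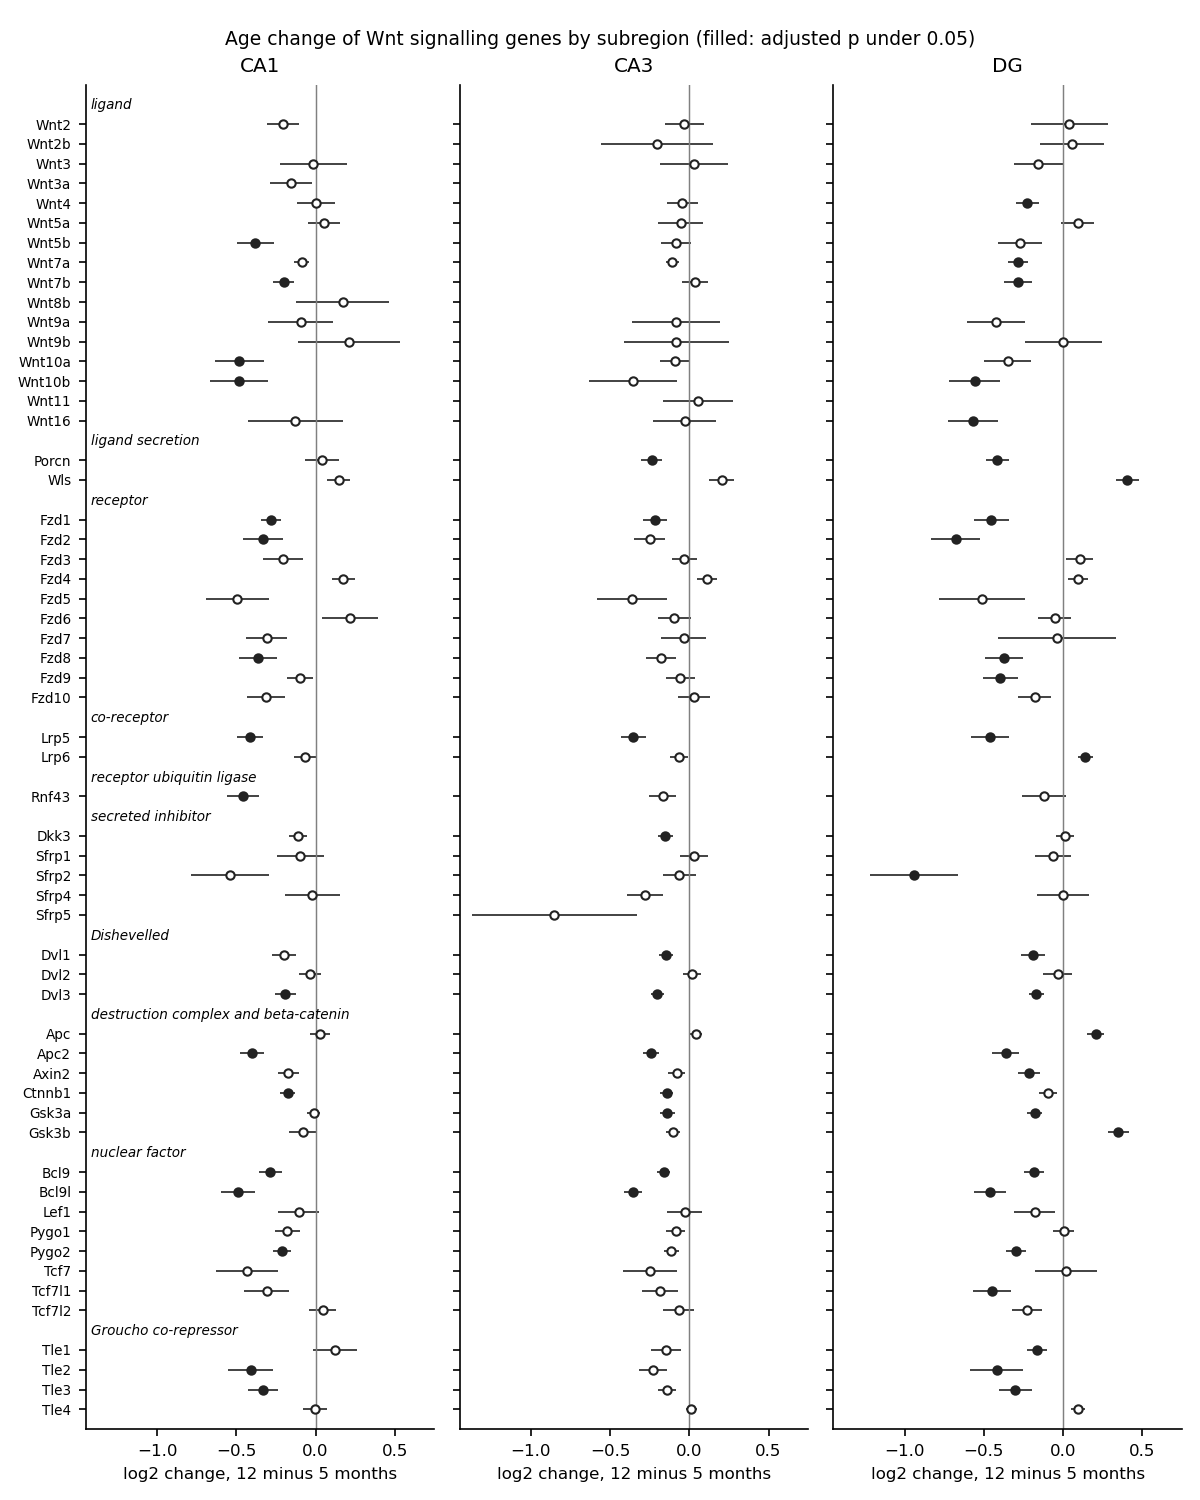
Log2 change (12 minus 5 months, on the log2 of value plus 1 scale) of each member tested in CA1, CA3 and the DG, with bars of 1 standard error, ordered by role. Filled points passed the test; 17, 11 and 28 are filled, most of them to the left of 0, and Apc, Gsk3b, Lrp6 and Wls lie to the right in the DG.

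These counts differed between the runs of animal numbers. In the second run alone, 24 of 54 members passed in CA1, where 33.8% of all genes did. CA3 had 10 of 55 in that run, near the 16.5% of all genes, and the DG 33 of 53, against 46.9%. In the first run alone, 3 passed in CA1 and 4 in CA3, near the shares of all genes (3.19% and 4.83%). The DG had 0 by limma in the first run, where 0.172% of all genes passed. In that run 15 of 53 members had an unadjusted p under 0.05, and the share of all genes at that threshold is not given here. Over all members tested, the sign of the change was the same in both runs for 41 of 54 in CA1 (75.9%, against 68.4% of all genes). CA3 had 34 of 55 (61.8%, against 67.2%) and the DG 35 of 53 (66%, against 69.1%), so these shares were near those of all genes. Among called members, whose choice used both runs, 1 had opposite signs. This was Tle2, whose log2 change in the DG was 0.07 (first run) and -0.97 (second run). The median member log2 change in the DG was -0.07 in the first run, -0.37 in the second. The difference between the runs was not tested.

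**Figure D2:**
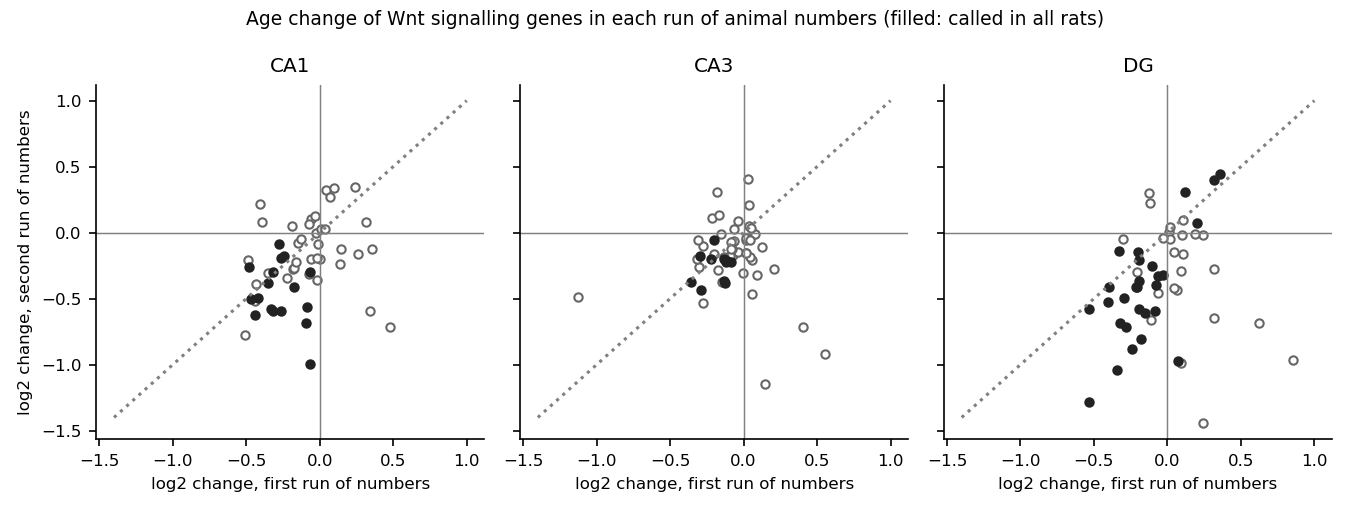
Log2 change of each member in the first run of animal numbers (horizontal axis) against that in the second run (vertical axis), by subregion, with filled points for members called over all rats and a dotted line of equality. Most filled points lie in the lower left and, in the DG, below the dotted line.

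Some markers of other cell types moved with age in the same libraries. The counts are to be read against the 25.2% (CA1), 21.7% (CA3) and 37.1% (DG) of all genes that passed in either direction. Of 6 markers of oligodendrocyte precursors, 4 were lower in CA1, CA3 had 3 and the DG 4, led by Gpr17 with a log2 change of -1.01 in CA1 (adjusted p 1.4e-05 by limma). Their summed level in the DG ranged from 3503 to 5337 in young and from 3076 to 5099 in middle-aged rats. Of 8 microglia markers, 3 were higher in CA1, CA3 had 6 and the DG 2. Their summed level in CA3 ranged from 5576 to 7095 in young and from 6880 to 25529 in middle-aged rats. Of 9 astrocyte markers, 4 were lower in CA1, while 2 were lower and 1 higher in CA3 and likewise in the DG. Of 6 markers of CA1 pyramidal cells, 3 were lower in CA1. The summed level of these 6 in CA1 ranged from 36924 to 66612 in young and from 32631 to 57685 in middle-aged rats. Of 9 meningeal and fibroblast markers, 4 were lower in the DG, with a summed level from 376 to 1129 in young and from 252 to 541 in middle-aged rats, while in CA1 2 were lower and 2 higher. Of 8 mural cell markers, 3 were lower in the DG, and 1 was lower in CA1 and in CA3. Of 8 oligodendrocyte markers, 3 were higher in the DG, 1 was lower in CA1 and 1 was higher in CA3. The DG counts of these 2 lists were near the share of all genes, and those of astrocytes and microglia were not above it. Markers of dentate granule cells (2 lower and 3 higher of 7) and CA3 pyramidal cells (3 lower and 2 higher of 7) moved both ways in the DG. The part of these cells in the changes of the Wnt genes was not tested. Without the 10 rats that stand apart, a setting chosen after seeing the data, 10 members passed in CA1, while CA3 had 4 and the DG 24. The shares of all genes that passed there were 15.9%, 7.22% and 31.6%. The 10 of 54 in CA1 and the 4 of 55 in CA3 were near theirs. The calls lost in CA1 were those of Dvl3, Fzd2, Pygo2, Tle2, Wnt5b, Wnt10a and Wnt10b. Ctnnb1, Dkk3, Dvl1, Dvl3, Fzd1, Gsk3a and Porcn lost theirs in CA3, and Bcl9, Dvl1, Fzd8, Lrp6, Tle3 and Wnt10b in the DG. On the mean over subregions, Fzd4, Fzd9 and Wnt5b lost theirs. Of the 6 genes lower in all 3 subregions, Apc2, Bcl9l and Lrp5 kept every call in that setting.

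Among the 16 ligands, the tests passed in CA1 and the DG and for none of the 14 tested in CA3. Wnt5b, Wnt7b, Wnt10a and Wnt10b were lower in CA1, and Wnt4, Wnt7a, Wnt7b, Wnt10b and Wnt16 in the DG. Wnt7a, a ligand expressed by neurons and glia, ranged in the DG from 650 to 877 in young rats (median 747) and from 513 to 802 in middle-aged rats (median 628). Its log2 change was -0.29 (SE 0.06, adjusted p 0.0012 by limma). All 12 young rats were above the middle-aged median, and the ranges overlapped. Wnt7a did not pass in CA1 (-0.09) or CA3 (-0.11).

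Wnt7b, its close relative, ranged in CA1 from 1768 to 2749 in young rats (median 2142) and from 1447 to 2348 in middle-aged rats (median 1829), a log2 change of -0.20 (SE 0.07, adjusted p 0.027). In the DG its change was -0.28 (SE 0.09, adjusted p 0.012), with all 16 middle-aged rats below the young median. In CA3 its log2 change was 0.04 and did not pass. The CA1 call was lost without young replicate 1 or 8 and under quantile normalization.

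Wnt16 had its highest level in the DG, where it ranged from 29.3 to 63.0 in young rats (median 45.3) and from 14.9 to 48.1 in middle-aged rats (median 32.5). Its log2 change there was -0.57 (SE 0.16, adjusted p 0.006), and the groups overlapped. Wnt10b, a canonical ligand, ranged in the DG from 15.5 to 51.0 in young rats (median 34.1) and from 14.9 to 32.1 in middle-aged rats (median 20.2). All 16 middle-aged values lay below the young median, and the log2 change was -0.56 (SE 0.16, adjusted p 0.008). In CA1 the change of Wnt10b was -0.48 with an adjusted p of 0.0497, and that call was lost in 20 of the 28 fits that each left out 1 rat. It was also lost with a pseudocount of 0.5, without the filter on low values and with TMM rescaling.

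Wnt4, whose read share was higher in the DG than in CA1 and CA3 in all 28 rats, ranged there from 3383 to 5732 in young rats (median 4310) and from 3131 to 4629 in middle-aged rats (median 3797). The log2 change was -0.23 (SE 0.07, adjusted p 0.017), and 15 of 16 middle-aged rats were below the young median. Wnt10a in CA1 changed by -0.48 (SE 0.16, adjusted p 0.024) and Wnt5b by -0.38 (SE 0.12, adjusted p 0.021). Without the 10 rats that stand apart, the Wnt10a and Wnt5b calls in CA1 and the Wnt10b call in the DG were lost, and the Wnt4 call was lost under quantile normalization. Wnt2, Wnt2b, Wnt3, Wnt3a, Wnt5a, Wnt8b, Wnt9a, Wnt9b and Wnt11 passed nowhere they were tested.

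The 2 genes of ligand secretion moved apart in the DG. Porcn, the acyltransferase that attaches the lipid to Wnt proteins, ranged in the DG from 1385 to 2245 in young rats (median 1766) and from 1033 to 1573 in middle-aged rats (median 1333). Its log2 change was -0.42 (SE 0.07, adjusted p 0.00028), and all 12 young rats lay above the middle-aged median while all 16 middle-aged rats lay below the young median. In CA3 it changed by -0.24 (SE 0.06, adjusted p 0.0098), and in CA1 its log2 change was 0.04 (SE 0.11) and did not pass.

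Wls, the carrier that takes Wnt proteins to the cell surface, ranged in the DG from 266 to 436 in young rats (median 372) and from 404 to 560 in middle-aged rats (median 475). It rose by 32.4%, a log2 change of 0.40 (SE 0.07, adjusted p 0.00028), with 0.36 (first run) and 0.45 (second run). All 12 young rats were below the middle-aged median and all 16 middle-aged rats were above the young median, with overlap only between 404 and 436. The log2 changes in CA1 (0.15) and CA3 (0.20) were in the same direction and did not pass.

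**Figure D3:**
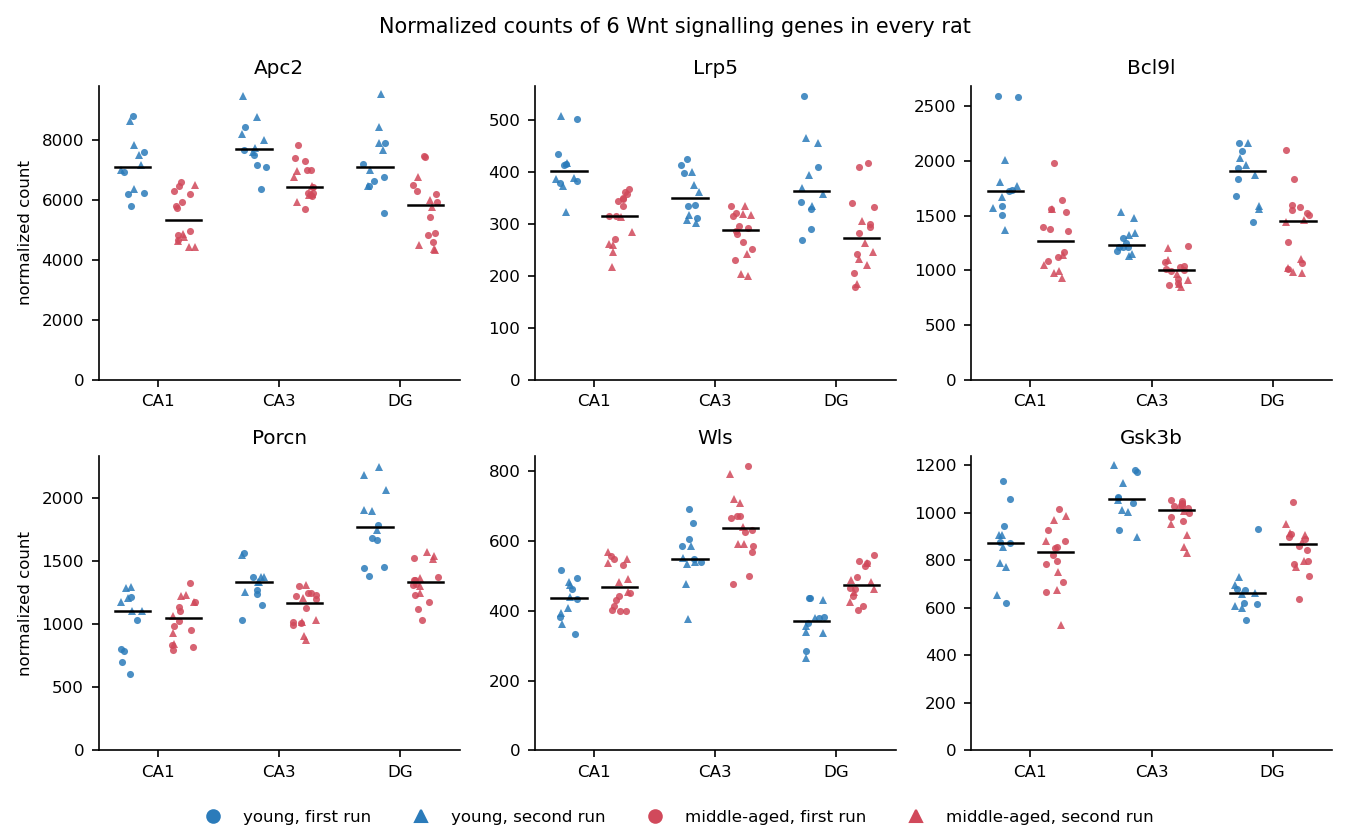
Normalized counts of Apc2, Lrp5, Bcl9l, Porcn, Wls and Gsk3b in every rat by subregion, young in blue and middle-aged in red, circles for the first and triangles for the second run of animal numbers, with a bar at the median of each age. Apc2, Lrp5 and Bcl9l are lower at 12 months in each subregion; in the DG Porcn is lower, and Wls and Gsk3b are higher.

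Of the 10 Frizzled receptors, Fzd1, Fzd2 and Fzd8 were lower in CA1, Fzd1 in CA3, and Fzd1, Fzd2, Fzd8 and Fzd9 in the DG. Fzd2 had the largest change of these. It ranged in the DG from 124 to 334 in young rats (median 269) and from 72.1 to 267 in middle-aged rats (median 150), a log2 change of -0.68 (SE 0.15, adjusted p 0.0015). All 16 middle-aged rats were below the young median. The change was -0.35 in the first run, -1.04 in the second. In CA1 Fzd2 changed by -0.33 (adjusted p 0.048), a call lost in 18 of the 28 fits without 1 rat and in the fit with no filter on low values.

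Fzd1 was lower in all 3 subregions. In the DG it ranged from 177 to 305 in young rats (median 223) and from 106 to 264 in middle-aged rats (median 163), a log2 change of -0.45 (SE 0.11, adjusted p 0.0025). All 12 young rats were above the middle-aged median. The change was -0.28 in CA1 (adjusted p 0.0027) and -0.22 in CA3 (adjusted p 0.042), where the call was lost in 14 of the 28 fits without 1 rat. Fzd8 changed by -0.36 in CA1 (adjusted p 0.026) and -0.37 in the DG (adjusted p 0.014), and Fzd9 by -0.40 in the DG (adjusted p 0.0058). The Fzd8 call in CA1 was lost without young replicate 8. Fzd4 and Fzd5 passed on the mean over subregions only, Fzd4 with a log2 change of 0.13 (SE 0.04, adjusted p 0.013, and 0.051 without the rats that stand apart) and Fzd5 with -0.46 (SE 0.14, adjusted p 0.0085). Fzd3, Fzd6, Fzd7 and Fzd10 did not pass, and Fzd7 in the DG had opposite signs in the runs (0.85 in the first, -0.96 in the second).

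The 2 co-receptors differed. Lrp5 was lower in every subregion: in CA1 it ranged from 323 to 506 in young rats (median 401) and from 218 to 367 in middle-aged rats (median 315). Its log2 change was -0.41 in CA1 (SE 0.08, adjusted p 0.0011), -0.35 in CA3 (SE 0.08, adjusted p 0.0028) and -0.46 in the DG (SE 0.12, adjusted p 0.0039). All 12 young rats in CA1 and CA3 lay above the middle-aged median. Lrp6 was higher in the DG, from 595 to 818 in young rats (median 706) and from 698 to 874 in middle-aged rats (median 764). The log2 change was 0.14 (SE 0.05, adjusted p 0.017), with 11 of 12 young rats below the middle-aged median. In CA1 and CA3 Lrp6 had a log2 change of -0.06 and did not pass. Lrp6 was called in neither run alone in the DG, where its changes were 0.20 and 0.07.

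Rnf43, a ubiquitin ligase that removes Frizzled receptors from the cell surface, ranged in CA1 from 152 to 267 in young rats (median 222) and from 93.2 to 214 in middle-aged rats (median 161). The log2 change was -0.46 (SE 0.10, adjusted p 0.0029), and all 16 middle-aged rats were below the young median. In CA3 (-0.17) and the DG (-0.12) it did not pass.

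Secreted inhibitors bind Wnt proteins or Lrp co-receptors outside the cell. Sfrp2 had the largest called change of any member, in the DG. It ranged there from 19.7 to 101 in young rats (median 44.5) and from 8.56 to 60.8 in middle-aged rats (median 19.8), a log2 change of -0.94 (SE 0.28, adjusted p 0.0094). In 14 of 16 middle-aged rats it was below the young median, and the groups overlapped widely. The change was -0.54 (first run) and -1.29 (second run). In CA3, where its level was highest, Sfrp2 did not pass (-0.06). Dkk3, a divergent member of the Dickkopf family, was lower in CA3 by -0.15 (SE 0.05, adjusted p 0.020), from 9109 to 12000 in young rats and from 8044 to 10656 in middle-aged rats. That call was lost under quantile normalization and without the 10 rats that stand apart. Sfrp1, Sfrp4 and, in CA3, Sfrp5 did not pass.

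Of the 3 Dishevelled genes, whose proteins relay the signal from Frizzled, Dvl3 was lower in every subregion. Its log2 change was -0.19 in CA1 (adjusted p 0.031), -0.20 in CA3 (adjusted p 0.001) and -0.17 in the DG (adjusted p 0.0075). In CA3 all 12 young rats were above the middle-aged median. The CA1 call of Dvl3 was lost without young replicate 1, young replicate 2 or middle-aged replicate 15. Dvl1 was lower in CA3 (-0.15, adjusted p 0.018) and the DG (-0.19, adjusted p 0.044), the latter lost in 16 of the 28 fits without 1 rat, and Dvl2 did not pass anywhere.

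In the destruction complex, Apc2, a relative of Apc found mainly in neurons, was lower in all 3 subregions. In CA1 it ranged from 5786 to 8813 in young rats (median 7087) and from 4419 to 6613 in middle-aged rats (median 5347), a log2 change of -0.40 (SE 0.08, adjusted p 0.00093). All 12 young rats were above the middle-aged median and all 16 middle-aged rats below the young median. The change was -0.24 in CA3 (adjusted p 0.0018) and -0.36 in the DG (adjusted p 0.0022). Apc itself, the scaffold of the complex, rose in the DG, from 5342 to 7639 in young rats (median 6264) and from 5962 to 8171 in middle-aged rats (median 7422). Its log2 change was 0.21 (SE 0.05, adjusted p 0.0039), and 11 of 12 young rats were below the middle-aged median.

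Gsk3a and Gsk3b encode kinases that phosphorylate beta-catenin. Gsk3b ranged in the DG from 550 to 930 in young rats (median 660) and from 638 to 1043 in middle-aged rats (median 867.6). It rose by 27.4%, a log2 change of 0.35 (SE 0.07, adjusted p 0.00049), with 0.31 in the first run, 0.40 in the second. Only young replicate 1 was above the middle-aged median, and only middle-aged replicate 6 was below the young median. In CA1 (-0.08) and CA3 (-0.10) Gsk3b did not pass. Gsk3a was lower in the DG by -0.18 (SE 0.05, adjusted p 0.0045) and in CA3 by -0.14 (adjusted p 0.035), the CA3 call being lost in 8 of the 28 fits without 1 rat.

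Ctnnb1, which encodes beta-catenin, was lower in CA1 by -0.18 (SE 0.05, adjusted p 0.0091) and in CA3 by -0.14 (SE 0.04, adjusted p 0.010). All 16 middle-aged rats were below the young median in both. Quantile normalization ended both calls. Axin2, both a member of the complex and a target of beta-catenin, was lower in the DG, from 416 to 544 in young rats (median 477) and from 305 to 510 in middle-aged rats (median 421). The log2 change of Axin2 was -0.22 (SE 0.07, adjusted p 0.018), -0.08 (first run) and -0.40 (second run).

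Among nuclear factors, the co-activators Bcl9 and Bcl9l, which link beta-catenin to Pygo proteins, were lower in all 3 subregions. Bcl9l ranged in CA3 from 1133 to 1533 in young rats (median 1231) and from 848 to 1219 in middle-aged rats (median 1001), a log2 change of -0.36 (SE 0.06, adjusted p 0.00012). All 12 young rats were above the middle-aged median and all 16 middle-aged rats below the young median. Its changes were -0.49 in CA1 (adjusted p 0.0025) and -0.46 in the DG (adjusted p 0.0014). Bcl9 changed by -0.29 in CA1 (adjusted p 0.0067), -0.16 in CA3 (adjusted p 0.0052) and -0.19 in the DG (adjusted p 0.023).

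Pygo2, a reader of histone marks in the same complex, was lower in CA1 (-0.21, adjusted p 0.0098) and the DG (-0.30, adjusted p 0.00074). Tcf7l1, a Tcf factor that mostly represses, was lower in the DG, from 82.2 to 168 in young rats and from 48.6 to 120 in middle-aged rats, a log2 change of -0.45 (SE 0.12, adjusted p 0.0043). Lef1, Tcf7, Tcf7l2 and Pygo1 did not pass in any subregion. Of the Groucho co-repressors, Tle3 was lower in CA1 (-0.33, adjusted p 0.012) and the DG (-0.30, adjusted p 0.025), the latter lost without young replicate 7 or 12. Tle2 was lower in CA1 (-0.41, adjusted p 0.034) and the DG (-0.42, adjusted p 0.048), calls lost in 9 and 20 of the 28 fits without 1 rat, and Tle1 in the DG (-0.17, adjusted p 0.038), lost in 11. Tle4 did not pass. Quantile normalization also ended the calls of Tle1 and Dvl1 in the DG, Dvl3 in CA1 and Gsk3a in CA3, and the run of animal numbers as a term ended those of Tle2 and Dvl1 in the DG.

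Whether the age change differed between subregions was tested on the difference within each rat. Between the DG and CA3, 1 of 53 members passed, against 2.73% of all genes. This was Gsk3b, whose age change was higher in the DG by 0.45 on the log2 scale (SE 0.08, adjusted p 0.011). Between the DG and CA1, 0 of 52 passed by limma, against 0.607% of all genes. At an unadjusted p under 0.05 there were 10 of these members, and 2325 of the 14340 genes tested. The smallest adjusted p values there were those of Porcn, with a difference of -0.46 (SE 0.12, adjusted p 0.056), and Gsk3b, with 0.43 (SE 0.12, adjusted p 0.076). Between CA1 and CA3, 0 of 52 passed, against 0% of all genes. There, 7 members had an unadjusted p under 0.05, as did 1444 of the 14513 genes tested. In these tests, no change called in 1 subregion alone was shown to differ from those in both other subregions.

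Levels are described across subregions as CPM, a gene's reads per M recovered reads of its library, with no test, since the authors scaled each table separately. The highest median of the 54 members in every table fell in CA1 for 21, in the DG for 19 and in CA3 for 14. Of these, 7 were highest in the same subregion in all 28 rats. Wnt2 had a median of 39.6 in CA1 (range 20.9 to 49.8), with 15.6 in CA3 and 8.07 in DG libraries. Wnt3a, the ligand required for hippocampal development, had 3.86 in CA1 (range 2.18 to 5.45), 0.384 in CA3 and 0.352 in the DG, where its highest value was 1.83.

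Wnt4 and the co-repressor Tle1 were highest in the DG in all 28 rats, at a median of 226 and 86.3. Wnt4 had 105 in CA3 and 97.3 in CA1. Apc, Dkk3 and Sfrp2 were highest in CA3 in all 28 rats. The Sfrp2 median was 8.72 in CA3, 3.36 in CA1 and 1.49 in the DG, so the DG level that fell with age was the lowest of the 3. Fzd7 was highest in CA1 in 27 of 28 rats, with a median of 7.18 against 4.07 in CA3 and 1.21 in the DG. Neighbouring subregions often did not separate: Wnt7a had a median of 38.9 in the DG against 36.9 in CA1 and 36.5 for CA3, with overlapping ranges.

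**Figure D4:**
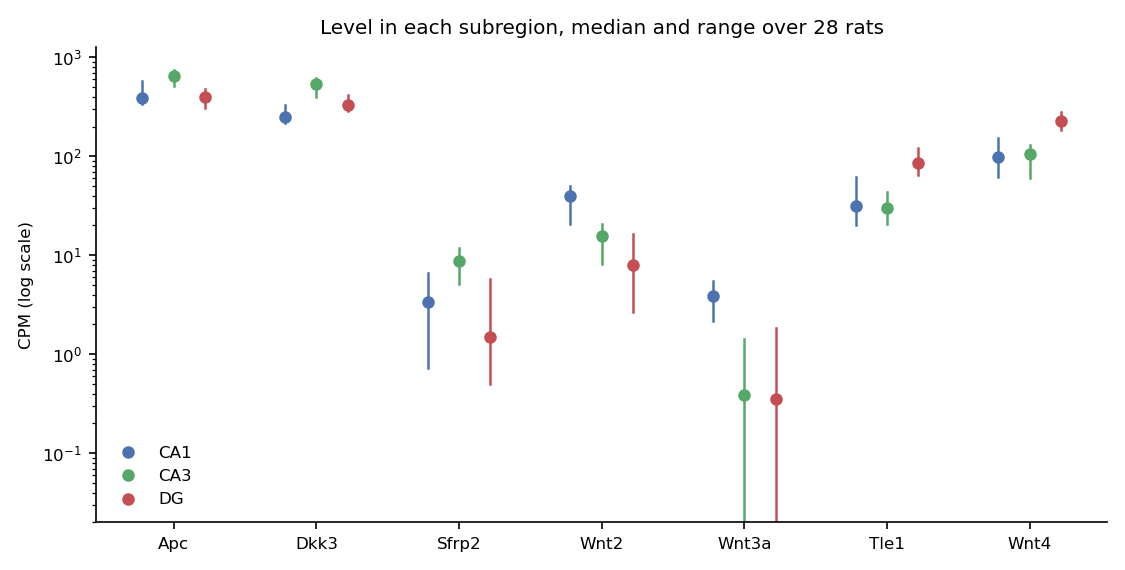
CPM (log scale) of the 7 members that were highest in the same subregion in all 28 rats, as the median (point) and range (line) over rats in CA1, CA3 and the DG; lines that reach the lower edge go down to 0. Wnt2 and Wnt3a are highest in CA1, Apc, Dkk3 and Sfrp2 in CA3, and Tle1 and Wnt4 in the DG.

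Other genes around the pathway were counted from lists of their roles, to be read against the 25.2% (CA1), 21.7% (CA3) and 37.1% (DG) of all genes that passed in either direction. Of 32 further cytoplasmic and nuclear regulators, 7 were lower and 2 higher in CA1, 7 lower and 1 higher in CA3, and 11 lower and 4 higher in the DG. The CA1 and CA3 counts were near those shares. Ctnnbip1, which binds beta-catenin and blocks Tcf, had a log2 change of -0.41 in CA1 (adjusted p 0.00078) and -0.37 in the DG (adjusted p 0.0017). Amer2, a binding partner of Apc, changed by -0.45 in CA1 (adjusted p 0.0013) and -0.23 in CA3 (adjusted p 0.016).

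Of 14 non-canonical receptors and planar polarity genes, 3 were lower in CA1, CA3 had 3 and the DG 4, with 1 higher in CA1 and in CA3. Thus 4 of 14 passed in each subregion, near the shares of all genes in CA1 and CA3 and below that in the DG. The cadherin Celsr2 was lower in each, by -0.43 in CA1 (adjusted p 0.0018), -0.24 in CA3 (adjusted p 0.0041) and -0.29 in the DG (adjusted p 0.0044). Ror2, a receptor for Wnt5a, changed by -0.54 in the DG (adjusted p 0.00093). Of 10 genes known as beta-catenin targets that were tested, 2 were lower in CA1, CA3 had 1 and the DG 3, and none was higher. These counts were not above the shares of all genes that passed in either direction. The target list includes the members Axin2, Rnf43, Lef1 and Tcf7, of which Axin2 (DG) and Rnf43 (CA1) were called. Its other genes called in a subregion were Nkd1 in CA1 (-0.31), Apcdd1 in CA3 (-0.21) and the DG (-0.30), and Ccnd1 in the DG (-0.30). Nkd1 and Apcdd1 are also on other lists counted here, so their calls are counted in both. Of 6 R-spondins and their Lgr receptors tested, Lgr6 was lower in CA1 (-0.60, adjusted p 0.032) and Lgr4 higher in the DG (0.15, adjusted p 0.031). Of 13 genes of the calcium branch, 2 were lower and 1 higher in CA1 and likewise in CA3, whereas the DG had 3 each way. The CA1 and CA3 counts of this branch were near the shares of all genes. Of the further secreted or membrane regulators, 4 of 12 were lower in CA1, among them Gpc6 (-0.53, adjusted p 0.005), 2 of 13 were lower and 1 higher in CA3, and 2 of 12 lower and 1 higher in the DG.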

How the data were processed

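RNA was measured in polyA-selected libraries of 3 hippocampal subregions, per the labels' protocols. Named in the submitters' processing notes, without roles or order, are build rn6, DESeq2 3.5, STAR 2.5.3a and Partek. Neither the annotation nor the strand setting is given in the sources used here. The deposited values are a signal, the authors' normalized counts: dividing a library's values by their smallest step gave whole reads for 100% of low values, so reads were recovered. For CA3, 1 column is headed by an animal number alone and was taken as that animal's CA3 library.

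Genes that reached 10 in 12 or more of a subregion's 28 libraries entered limma tests of log2(value + 1), run with limma 3.58.1 (trend, 2-sided) under R 4.3.3, p values being adjusted by Benjamini-Hochberg over all genes tested. The mean and differences of a rat's log2 values used the animal in the titles, and libraries of a rat correlated at 0.107 in a joint fit. Alternatives were edgeR 4.0.16, DESeq2 1.42.0 and other scalings and filters. The fits were first tested on simulated data. The members and lists were chosen with earlier results of these data known. All members may be named, with group values for those that passed, and up to 4 genes of each further list with the smallest p. Below the filter were Dkk2, Wnt11 and Wnt2b in CA1, Wnt3a and Wnt8b in CA3, and Wnt3a in the DG. The p values set the age change against the spread between rats of the same age. With 1 library per rat and subregion, that spread also holds differences of dissection and library. One marker list is not reported here. Members the rule lists but the tables do not name were not analysed here.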

Additional observations from a re-analysis of the deposited data

Results flagged for a closer look

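Gsk3b was the only member whose age change differed between subregions by a test of the difference itself. The change in the DG exceeded that in CA3 by 0.45 on the log2 scale, with an adjusted p of 0.011 by limma over all genes tested. The difference was 0.39 in the first run of animal numbers, where it did not pass (adjusted p 0.28), and 0.57 in the second (adjusted p 0.026). Leaving out any 1 rat gave values from 0.42 to 0.48, and each passed. Without the 10 rats that stand apart it was 0.55 (adjusted p 0.032).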

How the results depend on the processing

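In all alternatives run on the 3 subregions and the mean except the single runs and the rats that stand apart, the number of members called stayed within 1.5 times. With edgeR it was 17, 11 and 30 in CA1, CA3 and the DG, and with DESeq2 19, 12 and 30. The shares of all genes that passed are not given here for edgeR, DESeq2 or the fits that each left out 1 rat. Whether those shares moved with the member counts is thus not shown. In the first run alone it was 3 in CA1, 4 in CA3, 0 in the DG, 10 on the mean and 0 for the DG against CA3. The 10 of 52 on the mean were near the 18.4% of all genes. The second run alone gave 3 of 53 for the DG against CA3 (Gsk3b, Fzd2 and Wnt7a), near the 5.26% of all genes. With the run as a term, 1 of 52 members passed for the DG against CA1 (Porcn), where 264 of 14340 genes did. For the DG against CA3, 2 of 53 passed (Gsk3b and Lrp6), where 434 of 14378 genes did. Both were near the share of all genes. A minimum of 50 gave 1 for the DG against CA1 (Porcn), and no replicate block, which ignores that libraries pair within a rat, gave 2 (Gsk3b and Porcn). The shares of all genes in these 2 settings are not given here. With the rat as replicate block, 30 passed on the mean, as without it. Without the rats that stand apart, chosen after seeing the data, 10 of 54 passed in CA1 and 4 of 55 in CA3. Both were near the shares of all genes (15.9% and 7.22%). Leaving out 1 rat gave 12 to 20 in CA1, 9 to 16 in CA3, 24 to 30 in the DG, 28 to 31 on the mean, 0 to 3 for the DG against CA1 (above 0 for young replicates 1 and 7 and middle-aged replicates 3 and 6), 1 to 2 for the DG against CA3 (above 1 for young replicates 1, 2 and 12 and middle-aged replicate 6) and 0 for CA1 against CA3. Among members called over all rats, the log2 changes that reversed were Dkk3 on the mean under quantile normalization, at 0.00038, and Tle2 in the DG in the first run, at 0.069. The cause was not tested. Reads per library limit the weakest ligands: Wnt3a was at 0 in some CA3 and DG libraries.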

Other observations

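Several calls lie close to the threshold. Among fits that each left out 1 rat, the DG call of Dvl1 was lost without young replicates 1, 2, 4, 5, 7, 8, 9 or 12 or middle-aged replicates 1, 5, 7, 8, 9, 11, 12 or 14. The CA3 call of Fzd1 was lost without young replicates 1, 2, 3, 4, 5, 7, 9 or 10 or middle-aged replicates 2, 7, 10, 11, 12 or 16. The CA3 call of Gsk3a was lost without young replicates 1, 2 or 12 or middle-aged replicates 5, 7, 10, 12 or 14. The DG call of Tle1 was lost without young replicates 5, 7, 8, 9 or 11 or middle-aged replicates 1, 3, 5, 11, 14 or 15. The CA1 call of Tle2 was lost without young replicates 1, 6, 8, 11 or 12 or middle-aged replicates 10, 12, 14 or 16. The CA1 call of Fzd2 was lost without young replicates 1, 6, 7, 8, 9, 10, 11 or 12 or middle-aged replicates 1, 2, 3, 5, 8, 10, 12, 14, 15 or 16. The CA1 call of Wnt10b was lost without any young replicate but 4, 5 and 6 or any middle-aged replicate but 4, 5, 6, 9 and 10. The DG call of Tle2 was lost without any young replicate but 3, 5 and 6 or any middle-aged replicate but 2, 3, 4, 10 and 16. On the mean over subregions, the Dkk3 call was lost without young replicates 1, 2, 3, 4, 7, 8 or 11 or middle-aged replicates 1, 2, 3, 7, 10, 11, 12, 13 or 14. On that mean the Fzd9 call was lost without young replicate 3.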
